A study of Mus musculus with 74 samples.

Results

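Of the 361 transcripts that were higher in erythropoietin-treated control cells than in their untreated progenitors, 173 reached a lower level with a hairpin against Stag2, and these 173 are described here. They were chosen among 55943 transcript identifiers by their own levels, in CPM, the counts scaled to the library total. A transcript was kept when its mean in the treated control was at least 2 CPM and at least 2 times the progenitor control mean, when its mean with the Stag2 hairpin was at most the treated control mean divided by 1.5, and when both knockdown libraries lay below both control libraries. The level of a transcript after erythropoietin and its fold over the progenitor control are therefore descriptions, and no test is given for them.

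The cells were HPC-7, a single mouse haematopoietic progenitor line that grows with stem cell factor. Erythropoietin is the hormone that carries erythroid progenitors towards red cells. Cohesin is a ring-shaped protein complex that holds sister chromatids together and shapes chromatin loops. Rad21 and Smc1a encode core parts of the ring, and Stag2 encodes an accessory subunit that is exchangeable with a close relative.

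All cells carried a doxycycline-inducible short hairpin RNA and received doxycycline for 72 h. The Ery shStag2 and Ery Luc groups (2 libraries each) then had a further 48 h with erythropoietin at 4 U/l and stem cell factor at 20 ng/ul, although their labels also give 100 ng/ul for growth and name their cell type as progenitors. The HPC shStag2 (3 libraries), HPC shRad21 (3), HPC shSmc1a (2) and HPC Luc (3) groups were taken without that step, in stem cell factor at 100 ng/ul. Luc is the hairpin against luciferase, the control. Stage, time and stem cell factor thus change together between Ery and HPC and cannot be told apart, and the titles of HPC libraries add "inhibitor" without an explanation. Nothing in the labels tells whether libraries of a group are separate cultures or hairpins, and p-values then cover only library-to-library spread, which may be technical. Each library held 22288469 to 33355332 assigned counts. Among the HPC libraries, those numbered 3 and both shSmc1a libraries stood apart from the rest on the first 2 principal components, which held 21.4% and 18.2% of the variance. The results for HPC are therefore also given within these sets.

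The identifiers are Ensembl transcripts that no table used here pairs with gene symbols. The knockdown of the targeted genes and the erythroid character of the Ery cells could not be checked, and no gene function is given. Transcripts are described by their rank in mean Ery Luc level, from 1 (highest) to 173. Identifiers are given for 2 transcripts that were lower and 2 that were higher in a knockdown. A level counts only the reads assigned to 1 transcript, and 24.2% to 26.9% of the counted total per library was ambiguous between features.

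Summed over the 173 transcripts, the level was 3477 and 3499 CPM in the Ery shStag2 libraries, against 7910 and 7923 CPM in the Ery Luc libraries. It was 1874 to 1899 CPM in HPC shStag2, 1710 to 1839 CPM in HPC shRad21, 1930 and 2042 CPM in HPC shSmc1a, and 2148 to 2417 CPM in HPC Luc. The sum with the Stag2 hairpin was thus 0.441 of the control sum after erythropoietin, and it was 1.85 times its own progenitor sum where the control reached 3.53 times its own. The increase in CPM with the Stag2 hairpin was 28.1% of the increase with the control hairpin. In bulk RNA, fewer cells that express a transcript and less of that RNA per cell cannot be told apart.

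The other 188 induced transcripts had no such gap after erythropoietin. Their sum was 7314 and 7484 CPM in Ery shStag2, against 7056 and 7107 CPM in Ery Luc. In the progenitors it was 3407 to 3990 CPM in HPC shStag2 and 2876 to 3098 CPM in HPC Luc, so the shStag2 libraries were the higher ones before treatment as well. Their median ratio of Ery shStag2 to Ery Luc was 0.919, against 0.391 in the chosen transcripts, a gap that the choice itself sets.

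**Figure D1:**
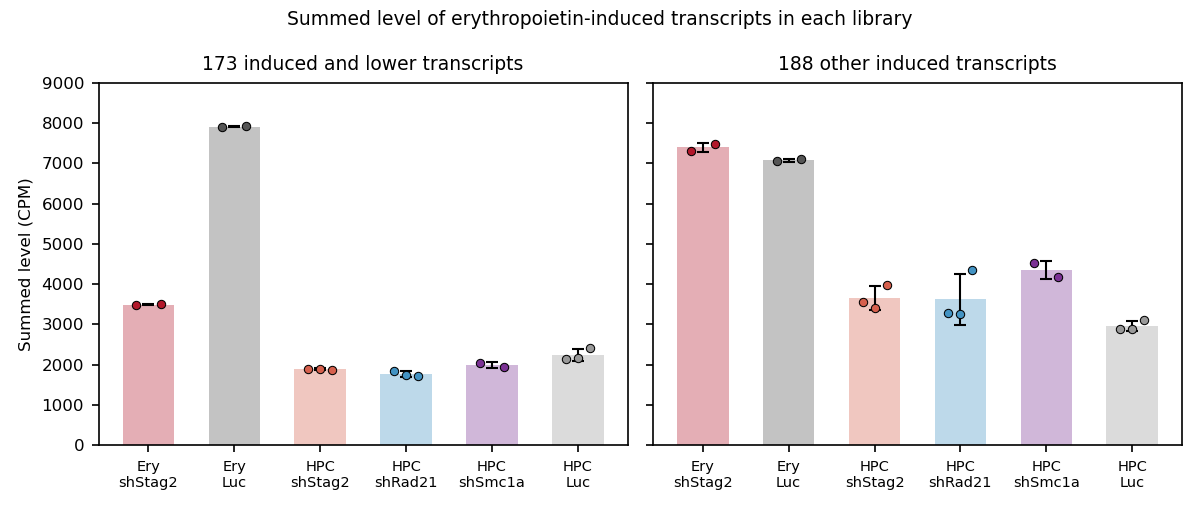
Summed level in CPM (vertical axis, from 0) of the 173 chosen transcripts (left) and the 188 other induced transcripts (right) in each group; points are libraries, bars group means and error bars SDs. On the left the Ery shStag2 libraries sit at 3477 and 3499 CPM and the Ery Luc libraries at 7910 and 7923 CPM, while on the right both Ery groups lie between 7056 and 7484 CPM.

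The 173 made up 47.9% of the induced transcripts. Of all 10578 transcripts with at least 2 CPM in Ery Luc, 5.05% were lower in Ery shStag2 by the same 1.5-fold and no-overlap condition, and 2.71% were higher by its mirror image. Since the same libraries chose the transcripts, nothing further is read from these shares. In the induced set, 242 transcripts had both Ery shStag2 libraries below both Ery Luc libraries with no condition on the fold, and 48 had both above. That condition was not counted over all transcripts, so nothing is read from these counts either. The last values inside the limits were ratios of 0.661 and 0.663, and the first outside were 0.6668 and 0.6674. For induction, 2.001 and 2.003 times the progenitor mean lay inside and 1.95 and 1.97 times outside. For the level, 2.03 and 2.04 CPM lay inside and 1.96 and 1.995 CPM outside.

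The levels were uneven. Mean Ery Luc levels ran from 2.03 to 1111 CPM with a median of 9.19 CPM. The 5 highest transcripts held 35.8% of the summed Ery Luc level, the 9 highest 50.1% and the 20 highest 71.2%. A mean of at least 100 CPM was reached by 9 of the 173 in Ery shStag2 and by 20 in Ery Luc, and a mean of at least 10 CPM by 48 in Ery shStag2 and by 81 in Ery Luc.

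The fall in level differed widely between transcripts. The ratio of the Ery shStag2 mean to the Ery Luc mean ranged from 0 to 0.663, with quartiles of 0.257 and 0.549. It was at most 0.25 for 41 transcripts and at most 0.5 for 116, and lay above 0.5 for 57. The transcript at 0, of rank 143, had no count in either Ery shStag2 library, against 2.33 and 3.79 CPM in Ery Luc. Replicates were close at these depths: the median difference between libraries was 0.15 on the log2 scale in Ery shStag2 and 0.12 in Ery Luc. The gap between the higher Ery shStag2 library and the lower Ery Luc library had a median of 1.05 and a range of 0.07 to 3.22 on that scale, with the smaller gaps among transcripts below 10 CPM.

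**Figure D2:**
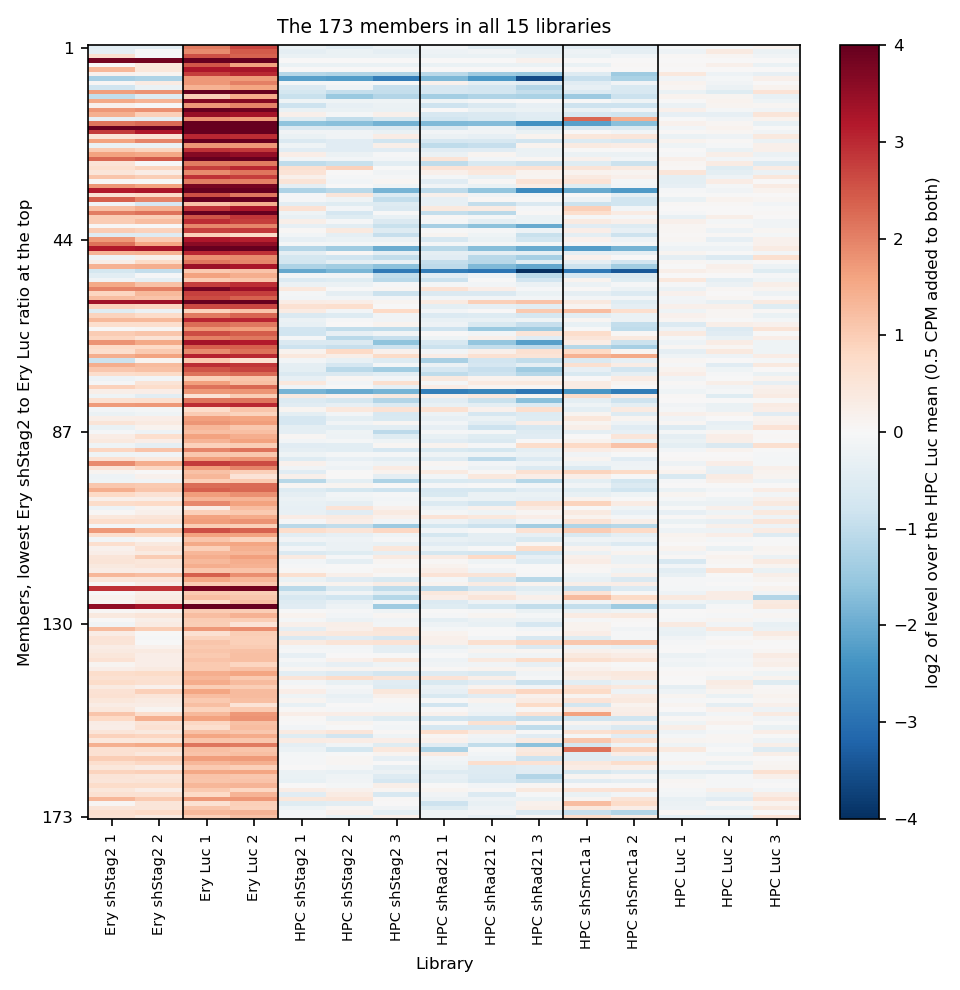
Level of each of the 173 transcripts (rows, lowest ratio of Ery shStag2 to Ery Luc at the top) in the 15 libraries (columns, grouped by black lines), as log2 of the level over the HPC Luc mean with 0.5 CPM added to both; red is higher and blue lower than HPC Luc, and values beyond 4 take the end colour. The Ery shStag2 columns are paler than the Ery Luc columns in most rows, and a minority of rows is blue in the HPC knockdown columns.

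The most abundant transcripts show the range of the loss. The transcript of rank 1 had 724 and 718 CPM in Ery shStag2, against 1106 and 1116 CPM in Ery Luc. Its progenitor levels were 441, 417 and 513 CPM in HPC shStag2, 429, 400 and 461 CPM in HPC shRad21, 443 and 435 CPM in HPC shSmc1a, and 448, 421 and 439 CPM in HPC Luc. The HPC groups overlapped, and the Ery groups were far apart. Rank 8 had the same shape, with 139 and 146 CPM in Ery shStag2, against 292 and 278 CPM in Ery Luc. All of its 11 HPC libraries lay between 98.5 and 116 CPM. Rank 9 was at 119 and 124 CPM in Ery shStag2, against 231 and 230 CPM in Ery Luc. With the Stag2 hairpin it stayed near its progenitor level, which was 113, 110 and 103 CPM in HPC shStag2, against 116, 117 and 112 CPM in HPC Luc.

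Other abundant transcripts lost more. Rank 4 had 103 and 102 CPM in Ery shStag2, against 347 and 342 CPM in Ery Luc. Its HPC levels were 35.3, 39.9 and 37.2 CPM with shStag2, against 43.3, 41.1 and 39.3 CPM with Luc. Rank 3 had 193 and 188 CPM in Ery shStag2, against 428 and 440 CPM in Ery Luc, from progenitor levels of 92.6 to 98.0 CPM in HPC shStag2 and 89.1 to 92.0 CPM in HPC Luc. In both, the groups were apart after erythropoietin and close together before it.

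Rank 13 lost most of its rise while its progenitor libraries overlapped. Its level was 30.5 and 31.7 CPM in Ery shStag2, against 175 and 167 CPM in Ery Luc. The progenitors had 17.5, 19.4 and 26.0 CPM with shStag2, against 17.5, 18.4 and 28 CPM with Luc. The fold over the progenitor mean was thus 1.48 with shStag2, against 8.02 with Luc. Rank 2 was uneven in the control, with 172, 164 and 170 CPM in HPC shStag2 and 151, 148 and 307 CPM in HPC Luc, so its fold depends on the third control library. It had 377 and 394 CPM in Ery shStag2, against 597 and 608 CPM in Ery Luc.

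Rank 6 was close to absent from the progenitors. It had 55.3 and 58.9 CPM in Ery shStag2, against 314 and 327 CPM in Ery Luc. In HPC Luc it had 3, 5 and 5 counts, and in HPC shStag2 it had 0 in all 3 libraries. Its level was at least 1151-fold higher in Ery shStag2 than in HPC shStag2, taking 3 counts over the group as the floor. With 0.5 CPM added its log2 rise was 6.85 with shStag2 and 8.74 with Luc, a gap that depends on the added amount. Since the shStag2 fold is only a lower bound, whether it was smaller than the control fold cannot be told. With the Stag2 hairpin it reached 0.178 of the control level.

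**Figure D3:**
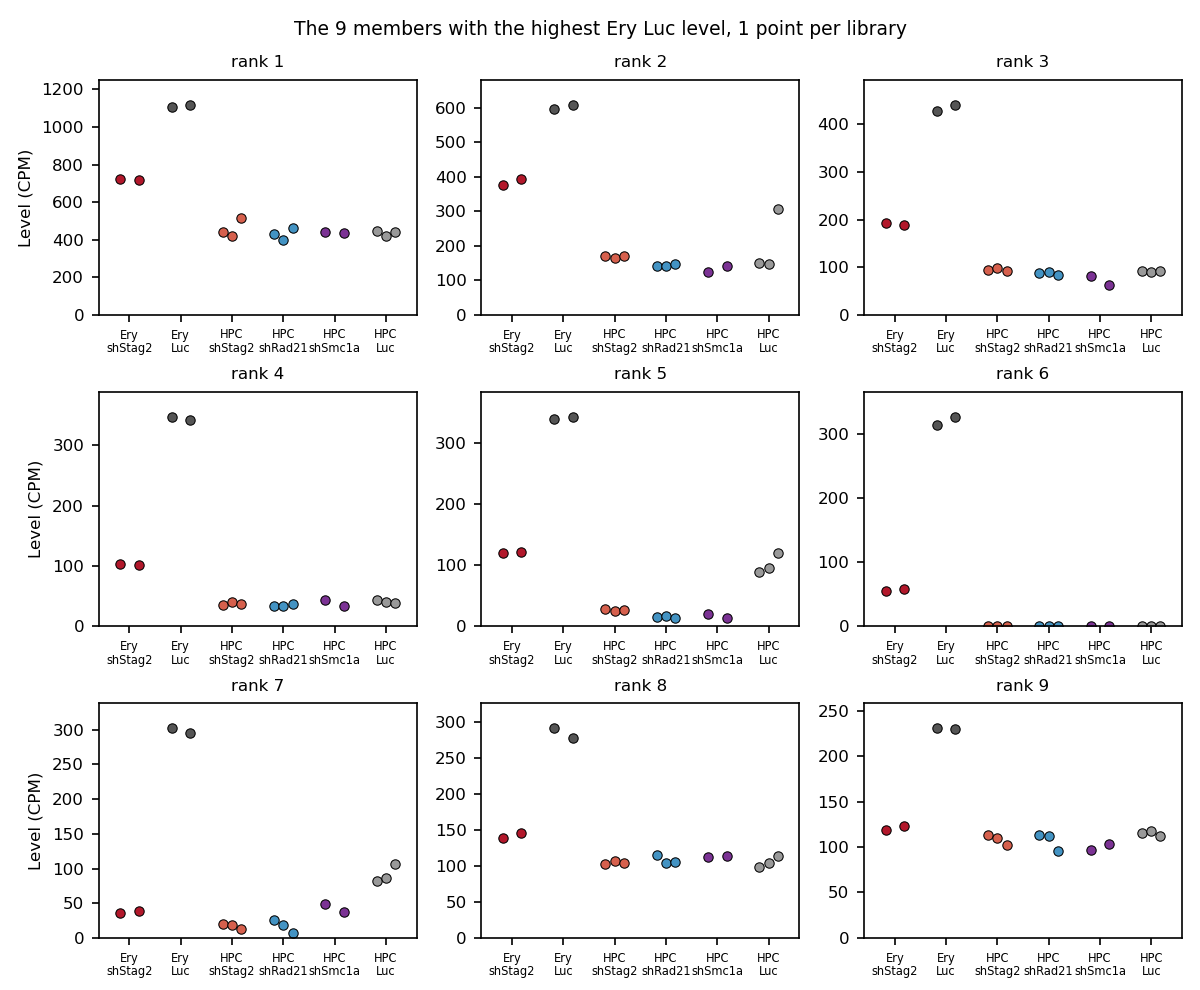
Level in CPM (vertical axes, each from 0 and each with its own scale) of the 9 transcripts with the highest Ery Luc mean, 1 point per library, in the 6 groups along the horizontal axis. In all 9 panels both Ery shStag2 points lie below both Ery Luc points, and in ranks 5 and 7 the HPC knockdown points also lie below the HPC Luc points.

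How much of the rise was left was measured in CPM for each transcript, as the Ery minus HPC difference with the Stag2 hairpin in percent of the same difference with Luc. The median was 22.2%, with quartiles of 11.5% and 32.5% and a range of -60.6% to 60%. It was 25% or less for 96 transcripts, more than 50% for 14 and more than 75% for 0. In the other 188 induced transcripts the median was 82.8%. The rule held the Ery shStag2 mean to at most the Ery Luc mean divided by 1.5, which limits the share that a chosen transcript can keep. The choice thus in large part sets both the low shares and the distance to the other induced transcripts. Nothing further is read from them. For 16 transcripts the Ery shStag2 mean was no higher than the HPC shStag2 mean. Rank 21 was the most abundant of them, with 34.8 and 35.8 CPM in Ery shStag2 and 35, 37.3 and 37.1 CPM in HPC shStag2. With the control hairpin the same transcript had 84.5 and 84.1 CPM in Ery Luc and 39.4, 40.1 and 38.5 CPM in HPC Luc.

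The Ery shStag2 libraries were also set beside the HPC shStag2 libraries. Both Ery shStag2 libraries lay above all 3 HPC shStag2 libraries for 137 transcripts and below all 3 for 4. The transcripts were chosen as induced, and these conditions were not counted over all transcripts, so the counts are only a description. An Ery shStag2 mean of at least 2 times the HPC shStag2 mean was kept by 82 of the 173 and by 105 of the other 188 induced transcripts. Of the 10578 transcripts with at least 2 CPM in Ery Luc, 2.49% reached that. Those were not chosen for a rise, so the choice sets the distance to that share. Set against the control progenitors, the Ery shStag2 mean was at least 2 times the HPC Luc mean for 61 transcripts, 1 to 2 times for 86 and lower for 26. On this CPM scale the median of all tested transcripts shifted by -0.20 on the log2 scale between Ery shStag2 and HPC shStag2, and by -0.13 between Ery Luc and HPC Luc. Scaled with TMM the shifts were -0.03 and -0.02, and the median share of the rise kept was 25.7%.

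As a ratio, with 0.5 CPM added to each mean, the response was smaller by at least 1.5-fold for 138 of the 173. It was within 1.5-fold of the control response for 35. None had a ratio larger by 1.5-fold. Among the other induced transcripts these numbers were 28, 147 and 13. The rule's 1.5-fold condition on the level after erythropoietin in large part sets this contrast, and nothing further is read from it. The median difference in log2 rise, shStag2 minus Luc with 0.5 CPM added, was -0.95 over the 173. The added 0.5 CPM lowers a fold more where the progenitor level is lower. With 0.25 and 1 CPM added in its place, 137 and 138 of the 173 had a rise smaller by 1.5-fold. For the 35, the level reached was lower by the rule, but the fold over the starting level was not smaller by 1.5-fold. Most of the 35 still had a somewhat smaller fold with shStag2 than with Luc, and a few had a larger one. The highest difference in log2 rise was 0.42.

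The start in progenitors ran with the size of the loss. The 63 transcripts with an HPC Luc mean under 1 CPM had a median ratio of Ery shStag2 to Ery Luc of 0.260. The 73 with 1 to under 10 CPM had 0.445, and the 37 with 10 CPM or more had 0.496. The share of the rise kept had medians of 19.6%, 22.2% and 27.8% in that order. The rule used the HPC Luc means and these ratios, and the 63 had a median Ery Luc level of 3.99 CPM, so their ratios rest on few counts. No test is given for this order.

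**Figure D4:**
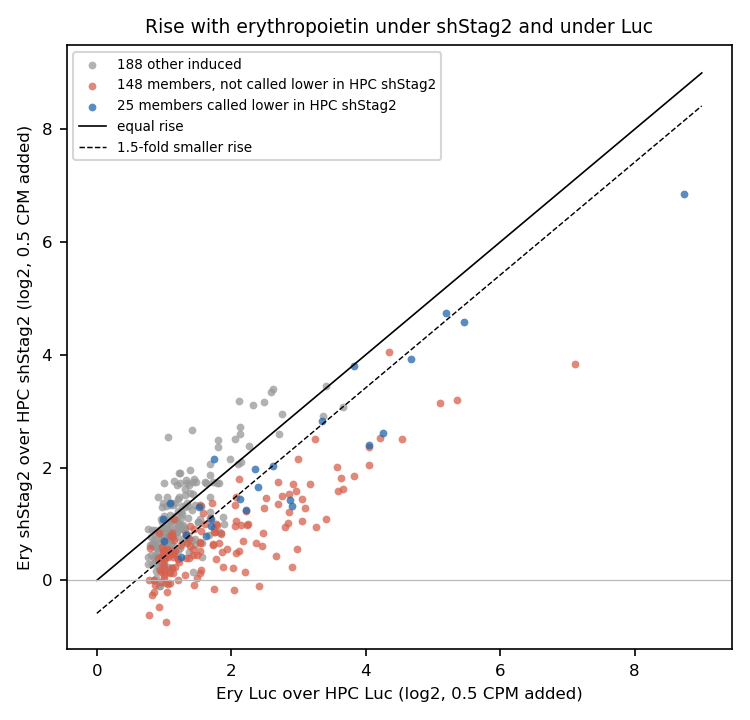
Rise with erythropoietin under shStag2 (Ery shStag2 over HPC shStag2, vertical) against the rise under Luc (Ery Luc over HPC Luc, horizontal), both log2 with 0.5 CPM added, for the 361 induced transcripts. The solid line marks an equal rise and the dashed line a 1.5-fold smaller one: 138 of the 173 chosen transcripts (red and blue) lie on or below the dashed line, against 28 of the 188 others (grey). The rule that chose the transcripts in large part sets this contrast.

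By the rule for identifiers, the lowest ratios among transcripts of at least 10 CPM belonged to ENSMUST00000103558.2 (rank 26) and ENSMUST00000047889.11 (rank 70). ENSMUST00000103558.2 had 6.61 and 6.69 CPM in Ery shStag2, against 66.5 and 71.7 CPM in Ery Luc. It had no count in any HPC shStag2 or HPC Luc library. It was at least 134-fold higher in Ery shStag2 than in HPC shStag2 and at least 1198-fold higher in Ery Luc than in HPC Luc, with 3 counts over each HPC group as the floor. ENSMUST00000047889.11 had 1.77 and 1.64 CPM in Ery shStag2, against 13.2 and 15.8 CPM in Ery Luc. This second transcript was already low in the knockdown progenitors, with 0.399, 0.369 and 0.375 CPM in HPC shStag2, against 2.17, 1.22 and 1.11 CPM in HPC Luc.

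Levels before erythropoietin were compared in the progenitors. Of the 173 transcripts, 25 fell in HPC shStag2 against HPC Luc and 0 rose (edgeR quasi-likelihood test, adjusted p under 0.05). Of all 18065 transcripts tested, 1.45% fell and 1.71% rose. At an unadjusted p under 0.05, 61 of the 173 were lower and 7 higher, beside 1200 and 1201 of all tested. DESeq2 called 29 of the 173 lower and 0 higher, beside 302 and 325 of all 18064. Of the 25, 18 fell by 2-fold or more. The median log2 fold change over the 173 was -0.31, against -0.00 over all tested. The rule had used the HPC Luc means, so the 3 comparisons with HPC Luc are not independent of the choice and are given as a description of these libraries.

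These calls moved with the scaling and the filter. With library totals in place of TMM, the median of all tested transcripts shifted to 0.12, their calls to 115 lower and 506 higher, and those of the 173 to 19 lower and 0 higher. The median of the 173 was then -0.19. Only 138 of the 173 had enough counts in the HPC libraries alone, and 35 passed the filter through the Ery libraries. A fit of the HPC libraries alone called 15 of the 138 lower and 0 higher, beside 164 and 234 of all 17455 tested. Within the HPC libraries numbered 1 and 2, 21 of 135 were lower and 3 higher, beside 520 and 598 of all 17151.

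Rank 5 was the clearest case. It had 27.9, 25 and 27.4 CPM in HPC shStag2, 14.7, 16.4 and 13.2 CPM in HPC shRad21, 19.9 and 14.2 CPM in HPC shSmc1a, and 89.9, 95.7 and 120 CPM in HPC Luc. All knockdown libraries lay below all control libraries. The log2 fold change of HPC shStag2 over HPC Luc was -1.98 ± 0.11 (SE; edgeR quasi-likelihood test, Benjamini-Hochberg adjusted p = 5.2e-09). After erythropoietin it had 121 and 122 CPM in Ery shStag2, against 340 and 344 CPM in Ery Luc. Its fold over progenitors was thus 4.53 with shStag2 and 3.36 with Luc, and its lower level after erythropoietin went with a lower start and not with a smaller fold.

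Rank 7 fell in progenitors and lost part of its fold as well. It had 20.0, 18.9 and 13 CPM in HPC shStag2, 26.0, 18.1 and 7.14 CPM in HPC shRad21, 48.2 and 37.3 CPM in HPC shSmc1a, and 82.1, 85.7 and 106 CPM in HPC Luc. The HPC shStag2 fold change was -2.45 ± 0.24 on the log2 scale (edgeR, adjusted p = 9.22e-06). After erythropoietin it reached 35.8 and 38.8 CPM in Ery shStag2, against 302 and 296 CPM in Ery Luc, so Ery shStag2 remained below the untreated control progenitors. The fold over progenitors was 2.16 with shStag2 and 3.27 with Luc.

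Ranks 14 and 16 were scarce in progenitors and many times higher after erythropoietin with either hairpin. With 0.5 CPM added, the log2 rise of rank 14 was 4.58 with shStag2 and 5.46 with Luc. That of rank 16 was 4.74 with shStag2 and 5.19 with Luc. The added amount lowers the shStag2 rise more in both, because the HPC shStag2 level was the lower start. Without it the folds given below were closer, and the gap in rank 14 exceeded 1.5-fold only with it. Rank 14 had 1.05, 1.23 and 0.499 CPM in HPC shStag2, against 3.06, 2.83 and 3.56 CPM in HPC Luc (log2 fold change -1.76 ± 0.29, edgeR adjusted p = 0.00136). It had 32.2 and 34.8 CPM in Ery shStag2, against 155 and 166 CPM in Ery Luc, which is 36.2 times its progenitor mean with shStag2 and 50.9 times with Luc. Rank 16 had 1.25, 0.983 and 0.499 CPM in HPC shStag2, against 2.93, 2.95 and 4.43 CPM in HPC Luc (log2 fold change -1.95 ± 0.26, edgeR adjusted p = 0.000196). It had 36.0 and 38.2 CPM in Ery shStag2, against 144 and 143 CPM in Ery Luc, or 40.8 and 41.7 times the progenitor mean with shStag2 and Luc. These 5 transcripts (ranks 5, 6, 7, 14 and 16) and rank 13 were chosen for description after their values were seen.

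The 25 that fell in HPC shStag2 can be set beside the other 148. Their median ratio of Ery shStag2 to Ery Luc was 0.304, against 0.421. Their median log2 rise was 1.44 with shStag2 and 2.35 with Luc. The other 148 had median rises of 0.60 with shStag2 and 1.54 with Luc. With 0.5 CPM added, 10 of the 25 kept a fold within 1.5-fold of the control fold, and 25 of the 148 did. No test is given for these differences, which rest on the contrast that chose the transcripts.

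The knockdowns of the ring subunits were measured in progenitors only. In HPC shRad21 against HPC Luc, 42 of the 173 fell and 1 rose (edgeR, adjusted p under 0.05), where 3.95% of all tested transcripts fell and 3.91% rose. The median log2 fold change was -0.40. Within the HPC libraries numbered 1 and 2, 30 of 135 were lower and 2 higher, beside 1150 and 1055 of all 17151 tested. Without the HPC shRad21 library numbered 2 the calls were 26 lower and 0 higher of the 173, beside 383 and 478 of all 17950. In HPC shSmc1a against HPC Luc, 17 fell and 10 rose, where 1.98% of all tested fell and 2.35% rose. The median there was -0.10. The HPC libraries alone gave 11 of 138 lower and 4 higher in HPC shSmc1a, beside 223 and 287 of all 17455. Within the HPC libraries numbered 3 and shSmc1a, 18 of 139 were lower and 7 higher, beside 416 and 435 of all 17312 tested. That fit has 1 HPC Luc library, and its spread comes from the 2 shSmc1a libraries alone, so the lone library is assumed to vary like them and the counts are weak. With library totals in place of TMM the 173 had 29 lower and 2 higher in HPC shRad21 (all tested 254 and 744) and 10 lower and 8 higher in HPC shSmc1a (all tested 116 and 411). All 3 knockdowns were set against the same HPC Luc libraries, so their calls on a transcript are not independent of each other.

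The same transcripts illustrate all 3 knockdowns. Rank 5 had log2 fold changes of -2.82 ± 0.12 in HPC shRad21 (edgeR, adjusted p = 6.41e-11) and -2.61 ± 0.14 in HPC shSmc1a (adjusted p = 1.66e-09). Rank 14 was at 1.28, 0.715 and 0.135 CPM in HPC shRad21 and at 0.398 and 0.253 CPM in HPC shSmc1a, with log2 fold changes of -2.13 ± 0.31 and -3.27 ± 0.44. Rank 16 was at 1.34, 0.715 and 0.472 CPM in HPC shRad21 and at 0.342 and 0.569 CPM in HPC shSmc1a, with log2 fold changes of -2.08 ± 0.27 and -2.97 ± 0.37. The adjusted p-values of ranks 14 and 16 ran from 6.72e-05 to 0.000298 (edgeR). ENSMUST00000047889.11 fell in HPC shStag2 (log2 fold change -1.99 ± 0.38, edgeR adjusted p = 0.00521) and in HPC shRad21 (-2.31 ± 0.41, adjusted p = 0.0013), and its change in HPC shSmc1a was -1.33 ± 0.41 (adjusted p = 0.081). Rank 7 fell in HPC shRad21 by 2.44 ± 0.25 (edgeR, adjusted p = 4.89e-06) and in HPC shSmc1a by 1.13 ± 0.26 (adjusted p = 0.017), a call that was lost under 5 of 14 alternatives, with adjusted p-values of 3.78e-31 to 0.215.

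**Figure D5:**
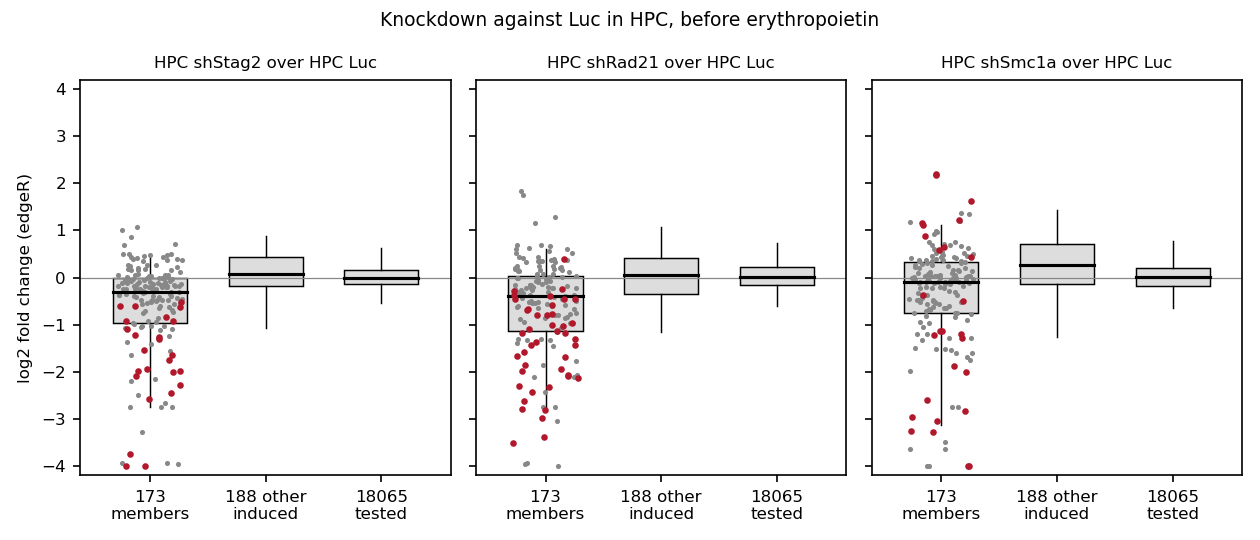
log2 fold change in HPC (vertical axis) of shStag2 (left), shRad21 (middle) and shSmc1a (right) over Luc, for the 173 chosen transcripts, the 188 other induced transcripts and all 18065 tested; boxes are quartiles with the median as a line, whiskers reach the 5th and 95th percentiles, and points are the 173, red where adjusted p is under 0.05, with values below -4 drawn at -4. The medians of the 173 are -0.31, -0.40 and -0.10 from left to right, and all red points are negative in the left panel.

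Among the other induced transcripts more rose than fell in the same comparisons. In HPC shStag2 against HPC Luc, 6 of the 188 fell and 14 rose, with a median log2 fold change of 0.08. These are 3.19% and 7.45%, beside 1.45% and 1.71% of all tested. In HPC shRad21, 15 fell and 24 rose (7.98% and 12.8%, beside 3.95% and 3.91% of all tested), with a median of 0.05. In HPC shSmc1a, 6 fell and 39 rose (3.19% and 20.7%, beside 1.98% and 2.35% of all tested), with a median of 0.27. All calls are edgeR at an adjusted p under 0.05. The 188 were also chosen through their HPC Luc means, which had to be low, and by not meeting the fall in Ery shStag2. Their counts against HPC Luc are therefore not independent of the choice and are only a description.

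The groups in the direct comparisons between knockdowns hold no library that the rule used, although the libraries of the rule share in the filter and in the estimate of the spread. The HPC libraries alone gave 2 lower and 0 higher of 138 for HPC shRad21 against HPC shStag2 (9 and 6 of all 17455 tested) and 1 lower and 6 higher of 138 for HPC shSmc1a against HPC shStag2 (87 and 97 of all). In HPC shRad21 against HPC shStag2, 3 of the 173 fell and 0 rose (edgeR, adjusted p under 0.05), where 0.149% of all tested transcripts fell and 0.072% rose. With the replicate number as a block the calls were 4 lower and 1 higher of 138, beside 124 and 114 of all 17455. Within the libraries numbered 1 and 2 they were 5 and 1 of 135, beside 203 and 181 of all 17151. At an unadjusted p under 0.05, 19 were lower and 9 higher, beside 849 and 803 of all tested, and the 9 are near that background. DESeq2 called 3 lower and 0 higher, beside 61 and 34 of all 18064. Without either the HPC shStag2 library numbered 1 or the HPC shRad21 library numbered 2, 1 call was left. With library totals 2 of the 173 were lower and 0 higher, against 22 and 5 of all tested. The 3 were ranks 5, 19 and 52, named because the count is small.

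Rank 5 was lower in HPC shRad21 than in HPC shStag2 by a log2 fold change of -0.84 ± 0.12 (edgeR, adjusted p = 0.0033). Rank 52 had 1.72, 1.26 and 0.876 CPM in HPC shRad21, against 3.89, 3.6 and 2.50 CPM in HPC shStag2, with no overlap (-1.35 ± 0.20, edgeR adjusted p = 0.0053). Rank 19 had 12.2, 12.7 and 11.9 CPM in HPC shRad21, against 24.9, 26.0 and 15.8 CPM in HPC shStag2 (-0.85 ± 0.17, edgeR adjusted p = 0.0375). The call on rank 19 was lost under 7 of 15 alternatives, with adjusted p-values of 1.14e-12 to 0.23, and that on rank 52 under 3 of 15, with adjusted p-values of 1.07e-06 to 0.271.

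HPC shSmc1a and HPC shStag2 differed more. In HPC shSmc1a, 3 of the 173 were lower than in HPC shStag2 and 14 higher (edgeR, adjusted p under 0.05), where 0.919% of all tested were lower and 1.16% higher. The median log2 fold change over the 173 was 0.18, against 0.00 over all tested. Both shSmc1a libraries belong to the set that stood apart. Within that set 12 of 139 were higher and 4 lower, beside 247 and 166 of all 17312 tested. The HPC shStag2 arm is then 1 library, assumed to vary like the 2 shSmc1a libraries, so these counts do not show whether the difference holds within the set. The calls fell to 6 higher and 3 lower of 138 with the library set as a term (all tested 167 and 150), to 8 higher and 3 lower with library totals in place of TMM (all tested 85 and 109), and to 8 or 9 in all without any 1 of both shSmc1a libraries or of the HPC shStag2 libraries numbered 1 and 2. The 188 other induced transcripts had 17 higher and 4 lower and a median of 0.16.

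The largest rises were those of ENSMUST00000027507.7 (rank 101) and ENSMUST00000114155.6 (rank 155), the identifiers given for higher transcripts. ENSMUST00000027507.7 had 9.45 and 5.12 CPM in HPC shSmc1a, 0.948, 0.532 and 0.749 CPM in HPC shStag2, and 1.53, 1.35 and 1.73 CPM in HPC Luc. Both shSmc1a libraries lay above every library of the other HPC groups. Its log2 fold change was 3.33 ± 0.28 over HPC shStag2 (edgeR, adjusted p = 2.76e-06) and 2.20 ± 0.25 over HPC Luc (adjusted p = 6.53e-05). After erythropoietin it had 1.13 and 1.09 CPM in Ery shStag2, against 6.67 and 6.20 CPM in Ery Luc. ENSMUST00000114155.6 had 5.52 and 2.02 CPM in HPC shSmc1a, 0.649, 0.328 and 1.31 CPM in HPC shStag2, and 1.27, 0.835 and 0.433 CPM in HPC Luc. Its log2 fold change was 2.41 ± 0.56 over HPC shStag2 (edgeR, adjusted p = 0.0307) and 2.17 ± 0.56 over HPC Luc (adjusted p = 0.0339). Each of these calls on ENSMUST00000114155.6 was lost under 7 of 14 alternatives, with adjusted p-values up to 0.572 and 0.559.

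Among abundant transcripts, rank 7 was higher in HPC shSmc1a than in HPC shStag2 by 1.32 ± 0.27 on the log2 scale (edgeR, adjusted p = 0.0138, lost under 3 of 14 alternatives with adjusted p-values of 2.34e-40 to 0.225). Rank 60 had 18.2 and 12.7 CPM in HPC shSmc1a, against 4.39, 3.93 and 3.0 CPM in HPC shStag2 (2.04 ± 0.30, edgeR adjusted p = 0.00141). In HPC Luc it had 9.62, 9.05 and 2.94 CPM, with 1 library far below the other two. Ranks 3 and 5 were lower in HPC shSmc1a. Rank 3 had 81.8 and 62.6 CPM in HPC shSmc1a, against 95.2, 98.0 and 92.6 CPM in HPC shStag2 (-0.38 ± 0.08, edgeR adjusted p = 0.0148, lost under 6 of 14 alternatives with adjusted p-values of 0.000229 to 0.252). Rank 5 differed by -0.63 ± 0.14 (edgeR, adjusted p = 0.0192, lost under 3 of 14 alternatives with adjusted p-values of 3.99e-08 to 0.284).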

How the data were processed

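The RNA-seq data were 15 libraries in 6 groups. The authors deposited raw read counts per transcript identifier, 1 table per library. Per the submitters' processing notes, STAR 2.4.0 and HTSeq were used with the mouse build mm10. The sources used here do not give strandedness, counting mode or annotation release, so overlapping, antisense or near-identical transcripts may share reads. The 5 summary lines of each table were left out, of which reads in no feature made 9.19% to 18.0% of the counted total. No replicates were merged, since their counts differed by more than sampling noise. The 3 promoter capture interaction lists and the chromatin immunoprecipitation samples were not used here.

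CPM were computed over the sum without the most counted identifier, which took 25.8% to 33.6% of assigned counts, and 1 identifier was left out of the set by the rule that chose it. Tests used edgeR 4.0.16 in R 4.3.3 with TMM, filterByExpr and 1 quasi-likelihood model of all 15 libraries. P-values were adjusted by Benjamini-Hochberg over the 18065 transcripts tested, with a threshold of 0.05, and each SE came from the fold change and its F value. The model's common biological coefficient of variation was 0.09. DESeq2 1.42.0 was an alternative. The model was tested on simulated data with known changes.

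Deviations from the group means of same-numbered HPC shStag2 and shRad21 libraries correlated at 0.126, 0.114 and 0.323 for numbers 1, 2 and 3, so that comparison was also fitted with the number as a block. Other pairs of groups did not reach 0.1 for every number. The transcripts, the groups of transcripts and the tests were chosen with earlier results of these data known. Identifiers were given to the 2 transcripts of at least 10 CPM with the lowest ratio and the 2 with the largest rise among those called higher. Log2 rises used a pseudocount of 0.5 CPM. Python 3 and matplotlib drew the plots.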

Additional observations from a re-analysis of the deposited data

How the results depend on the processing

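The set held 105 transcripts when an induction of 3 times was asked for and 81 when 10 CPM were asked for. It held 141 with the most counted identifier kept in the sum, 116 with a fall of 2 times and 170 with TMM scaling, of which 149 were among the 173. Leaving out 1 library gave 166 to 184. The number of transcripts with a rise smaller by 1.5-fold was 132 to 143 and the median share of the rise kept 21.5% to 25.7% over the alternatives run for them, all added after seeing the data. Calls among the 173 changed by more than 1.5 times in the following cases. All tested transcripts called lower and higher in the same fit stand in brackets. Without a filter on low counts they were 39 in HPC shStag2 (458 and 477 of 30033) and 44 in HPC shSmc1a (599 and 698) against HPC Luc. Against HPC shStag2 they were 8 in HPC shRad21 (107 and 125) and 38 in HPC shSmc1a (417 and 526). With the HPC libraries only, another added choice, they were 15 in HPC shStag2 (164 and 234 of 17455) against HPC Luc. In HPC shRad21 they were 28 (461 and 567) and in HPC shSmc1a 15 (223 and 287) against HPC Luc. HPC shSmc1a against HPC shStag2 then had 7 (87 and 97). With only the 2 groups compared, HPC shRad21 against HPC Luc had 21 (269 and 362 of 15911). In these fits fewer of the 173 passed the filter. With library totals, HPC shSmc1a against HPC shStag2 had 11 (109 and 85 of 18065). With the replicate block there were 45 in HPC shSmc1a against HPC Luc (1187 and 1167 of 17455). Against HPC shStag2 the block gave 5 in HPC shRad21 (124 and 114) and 32 in HPC shSmc1a (920 and 924). The library set as a term gave 5 in HPC shRad21 (143 and 132) and 9 in HPC shSmc1a (150 and 167) against HPC shStag2. Within the libraries numbered 1 and 2, HPC shRad21 against HPC shStag2 had 6 (203 and 181 of 17151). Numbers did not clearly pair libraries in any comparison. The HPC shStag2 library numbered 2 correlated at 0.139 with the HPC shRad21 library numbered 1 and at 0.114 with that numbered 2. Those numbered 3 correlated at 0.323 with each other, and at 0.184 and 0.187 with the HPC Luc library numbered 3. The block gave 28 calls in HPC shStag2 (487 and 540 of 17455) and 44 in HPC shRad21 (1208 and 1132) against HPC Luc. Not every library correlated best with its own number. Leaving out 1 library, calls against HPC Luc numbered 18 to 24 for HPC shStag2, 26 to 41 for HPC shRad21 and 14 to 28 for HPC shSmc1a. Against HPC shStag2 they numbered 1 to 4 for HPC shRad21 and 8 to 19 for HPC shSmc1a. Where an arm was left with 1 library, that library was assumed to vary like the other groups. The calls among all tested transcripts moved in these fits as well, so the changes are not particular to the 173. The cause of these changes was not tested. For the single transcripts described, 375 alternative values stayed past the threshold, 65 did not, and none changed sign. Depth limits the transcripts under 1 CPM in progenitors, where a group of libraries holds few counts, and 2 libraries per Ery group limit the precision of every level after erythropoietin.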

Other observations

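The mirror image of the rule, an Ery shStag2 mean of at least 1.5 times the Ery Luc mean with no overlap between libraries, held for 15 of the 361 induced transcripts, or 4.16%. Their summed level was 937 and 949 CPM in Ery shStag2, against 468 and 476 CPM in Ery Luc. The ratio of Ery shStag2 to Ery Luc had a median of 2.02 and ran from 1.5 to 6.42. In all 15 the HPC shStag2 mean was above the HPC Luc mean, with sums of 316 to 414 CPM in HPC shStag2 and 177 to 232 CPM in HPC Luc. Their rise was larger with shStag2 by at least 1.5-fold for 8 of the 15. These values chose the transcripts in part, and no test is given.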
